A study of Mus musculus with 12 samples.

Results

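The genes described here are the 8 gluconeogenesis genes Pck1, G6pc, Fbp1, Pcx, Ppargc1a, Slc37a4, Gpt and Gpt2, chosen by their symbols from the 25033 rows of a Ribo-seq table of mouse liver. All 8 symbols were found. In Ribo-seq, the RNA left inside ribosomes after nuclease digestion (the footprints) is sequenced, so the number of reads on a gene measures how many ribosomes were caught on its RNA. A second table, labelled RNA-seq, held nearly the same reads of these genes, so that the values are footprints rests on the label alone. Livers of male C57BL/6 mice aged 16 weeks that had been kept for 8 weeks, from 8 weeks of age, on a high-fat diet alone (HFD, 3 libraries) or on a high-fat diet with lycopene, a tomato carotenoid (LYC, 3 libraries), were the source of the RNA. Both groups therefore share the high-fat diet, and no mice on standard feed were analysed here. In the LYC samples the treatment label mentions the high-fat diet without lycopene, so the lycopene feed was taken from the sample titles and the study's methods. The labels also speak of RNA and footprints being pooled, so p-values measure the spread between libraries, which may not be the spread between single mice. The question is how far each gene of glucose synthesis differed in footprints between the HFD and LYC livers.

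Gluconeogenesis is the synthesis of glucose from lactate, amino acids and glycerol, and in fasting the liver is its main site. Pyruvate is carboxylated to oxaloacetate in mitochondria, oxaloacetate is turned into phosphoenolpyruvate, and the glycolytic enzymes then run backwards until fructose bisphosphatase and glucose-6-phosphatase finish the route. Glucagon and glucocorticoids raise the transcription of several of these genes, and insulin lowers it.

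Values are RPKM, reads scaled to gene length and library size, which is a level per length. The gene lengths behind the members' values, 1479 to 6495 bases, are those of transcripts, while footprints lie mostly on coding sequence, so the order of levels between genes also depends on untranslated length, and the comparison of 1 gene between groups does not. The HFD libraries held 2726202, 4405541 and 834410 reads and the LYC libraries 394461, 311050 and 412116 reads, as recovered from the steps between RPKM values. A single read at 1 kb of gene length equalled 0.227 to 1.20 RPKM in HFD and 2.43 to 3.21 RPKM in LYC, so low genes were measured less well in LYC. Small non-coding RNA genes held 2.75% to 4.11% of the reads in HFD and 9.21% to 13.0% in LYC. The depth and the small RNA share thus differed between the groups without overlap, and their part in the results below was not tested. In liver, as in any bulk tissue, fewer cells of a type and less RNA per cell cannot be told apart. Hepatocyte markers were abundant in all libraries, at 41205 to 44138 summed RPKM in HFD and 28787 to 37329 in LYC, and the kidney markers Slc34a1, Umod and Slc5a2 were at 0 throughout.

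Each gene was compared between LYC and HFD with limma's moderated test, two-sided, on log2(RPKM / TMM factor + 1). TMM, the trimmed mean of M-values, scales libraries to each other. The added 1 makes the log2 fold change of a low gene smaller than its true value. Calls needed a log2 fold change beyond 1 in size with an unadjusted p below 0.01, and adjusted p-values are Benjamini-Hochberg values over all 5790 genes tested. Of the 8 gluconeogenesis genes, 7 passed the filter on low reads and were tested. Pck1 was called higher in LYC, and 0 members were called lower. At an unadjusted p below 0.05 by limma, 1 member was higher and 0 lower, where 14.7% of all tested genes were higher and 15.2% lower, and edgeR and DESeq2 on the recovered reads also called Pck1 alone. Over all tested genes 6.84% were called higher and 6.42% lower, which is 396 and 372 genes, and without TMM scaling these numbers were 235 and 652. The median log2 fold change of the 7 tested members was 0.14, against -0.11 over all tested genes.

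Pck1 encodes the cytosolic phosphoenolpyruvate carboxykinase, which turns oxaloacetate into phosphoenolpyruvate and is commonly used as a readout of gluconeogenic transcription. The gene spans chr2:173153073-173159274 of GRCm38. Its promoter is shown here with that of G6pc because these are the classic hormone-controlled genes of the pathway and because the ratio of their footprints was higher in each LYC library than in any HFD library. Both are RefSeq sequences of GRCm38.p6, plus strand, 5′ to 3′, from 250 bases before to 50 bases after the annotated start. Capitals mark matches to any of 5 short motifs searched on both strands.
Pck1 promoter, chr2:173152823-173153122: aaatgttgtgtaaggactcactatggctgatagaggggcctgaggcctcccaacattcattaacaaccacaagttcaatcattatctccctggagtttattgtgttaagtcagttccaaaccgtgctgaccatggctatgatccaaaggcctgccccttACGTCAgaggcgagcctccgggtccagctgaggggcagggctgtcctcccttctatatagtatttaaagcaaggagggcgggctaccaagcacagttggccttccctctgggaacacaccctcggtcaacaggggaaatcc
G6pc promoter, chr11:101367466-101367765: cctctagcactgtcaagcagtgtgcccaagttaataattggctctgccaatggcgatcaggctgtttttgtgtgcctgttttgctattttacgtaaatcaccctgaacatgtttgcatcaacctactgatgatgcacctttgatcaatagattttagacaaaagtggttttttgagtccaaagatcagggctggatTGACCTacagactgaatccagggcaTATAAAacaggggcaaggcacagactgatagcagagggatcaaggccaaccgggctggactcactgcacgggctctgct

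In the Pck1 promoter the capitals are ACGTCA, the core of the cAMP response element type of motif, from base -91 to -86 relative to the start. In the G6pc promoter they are AGGTCA, a nuclear receptor half-site, read on the minus strand from -54 to -49, and a TATAAA box from -29 to -24. These matches do not overlap each other. The remaining motifs searched were TGTTTAC, a forkhead type, and TGTTCT, a glucocorticoid receptor half-site. All members but Gpt matched a promoter entry, and some had more than 1 annotated start. ACGTCA was found in a promoter of 3 of these 7 genes (Pck1, Ppargc1a and Slc37a4), AGGTCA in 3 (G6pc, Pcx and Slc37a4), TATAAA in 2 (G6pc and Slc37a4), and the other motifs in 0. Of 32851 promoters of the same length, 7.51% held ACGTCA, 16.3% AGGTCA, 13.6% TATAAA, 3.65% TGTTTAC and 19.0% TGTTCT. These shares are per single promoter, while the member counts take any annotated start of a gene. Slc37a4 and Pcx, with several starts, thus had more room for a match, and the counts and shares are not directly comparable. These matches describe letters in a window and are not evidence of binding.

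Footprints of Pck1 were 253, 530 and 405 RPKM in HFD1, HFD2 and HFD3, and 958, 1731 and 747 RPKM in LYC1, LYC2 and LYC3. The lowest LYC library lay above the highest HFD library, so the groups did not overlap, also after TMM scaling. On that scale 18.5% of all tested genes were higher and 19.3% lower without overlap, so this alone does not set Pck1 apart. The mean rose from 396 ± 139 RPKM to 1145 ± 518 RPKM (SD, n = 3 each). The log2 fold change was 1.79 (SE 0.34, 95% interval 1.00 to 2.57; limma adjusted p = 0.0155), which is 3.45-fold with an interval from 2.01 to 5.93. Pck1 lay at the 97.8th percentile of log2 fold changes over all tested genes. The values rested on 1821, 6162 and 892 reads in HFD and 996, 1420 and 812 reads in LYC, so counting error was small beside the spread between libraries. An exact permutation test of the mean RPKM gave p = 0.1, the smallest value that 3 libraries against 3 allow. Leaving out any 1 library kept the call, with log2 fold changes from 1.52 to 2.05, although the adjusted p then reached 0.0584.

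**Figure D1:**
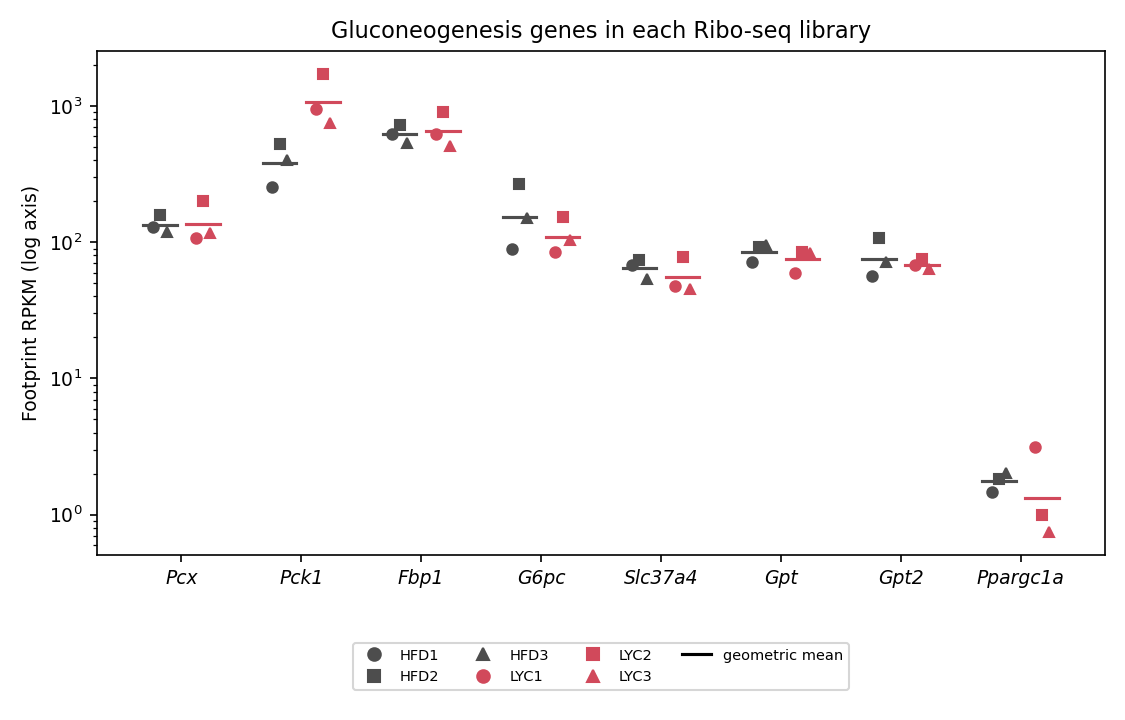
Footprint RPKM (log axis) of the 8 gluconeogenesis genes in the 3 HFD and 3 LYC libraries, with 1 point per library and a line at the geometric mean of each group. Pck1 is at 747 to 1731 RPKM in LYC and at 253 to 530 RPKM in HFD, the points of the other genes overlap between groups, and Ppargc1a lies far below the rest.

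Upstream of Pck1, Pcx encodes pyruvate carboxylase, the mitochondrial enzyme that makes oxaloacetate from pyruvate. The gene spans chr19:4510472-4621752 and overlaps Lrfn4, so reads in the shared stretch cannot be assigned with certainty. Pcx footprints were 129, 159 and 119 RPKM in HFD and 108, 202 and 117 RPKM in LYC. The groups overlapped on RPKM, with LYC1 and LYC3 below all HFD libraries and LYC2 above them. After TMM scaling the LYC libraries, at 127 to 200 scaled RPKM, lay just above the HFD libraries, at 116 to 126, where 18.5% of all tested genes were higher and 19.3% lower without overlap. The log2 fold change was 0.30 (SE 0.25, 95% interval -0.26 to 0.86; limma adjusted p = 0.442), so Pcx was not called.

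Fbp1 encodes fructose-1,6-bisphosphatase, which removes a phosphate from fructose-1,6-bisphosphate and bypasses phosphofructokinase. The gene spans chr13:62864753-62888298 and overlaps the long non-coding RNA gene Gm38679. Fbp1 footprints were 623, 728 and 533 RPKM in HFD and 624, 909 and 509 RPKM in LYC. The LYC values surrounded the HFD values, and the means were 628 ± 97.3 and 680 ± 206 RPKM (SD, n = 3 each). The log2 fold change was 0.37 (SE 0.26, 95% interval -0.21 to 0.96; limma adjusted p = 0.367), an interval that leaves room for a change in either direction but lies below a log2 fold change of 1. On RPKM, Fbp1 was the highest member in each HFD library and came second to Pck1 in each LYC library, whereas by reads, not scaled to length, Pck1 exceeded Fbp1 in HFD2 (6162 against 4741) and HFD3 (892 against 658).

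G6pc and Slc37a4 form the last step, in which the transporter encoded by Slc37a4 carries glucose-6-phosphate into the endoplasmic reticulum and the catalytic subunit encoded by G6pc splits it into glucose and phosphate. G6pc, at chr11:101367716-101377903, had 89.8, 269 and 151 RPKM in HFD and 84.2, 152 and 103 RPKM in LYC. HFD2 stood highest and the remaining libraries lay within one range, with group means of 170 ± 91.1 and 113 ± 35.2 RPKM (SD, n = 3 each). The log2 fold change was -0.20 (SE 0.34, 95% interval -0.98 to 0.58; limma adjusted p = 0.729), so no change was detectable, and its sign turned to 0.08 without HFD2. Among the 7 tested genes, G6pc had the highest coefficient of variation in HFD, at 53.6%. Slc37a4, at chr9:44396946-44402966 and overlapping the microRNA gene Mir7085, had 68.3, 73.8 and 54.0 RPKM in HFD and 47.4, 78.6 and 45.4 RPKM in LYC. Its groups overlapped, and its log2 fold change was 0.06 (SE 0.25, 95% interval -0.52 to 0.64; limma adjusted p = 0.905). In LYC the Slc37a4 values rested on 39, 51 and 39 reads.

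Gpt and Gpt2 encode the alanine aminotransferases, the former mainly cytosolic and the latter mitochondrial, which turn alanine into pyruvate. Gpt, at chr15:76696726-76699675, had 71.2, 91.7 and 95.2 RPKM in HFD and 59.5, 84.5 and 84.1 RPKM in LYC. The groups overlapped and the log2 fold change was 0.10 (SE 0.23, 95% interval -0.43 to 0.63; limma adjusted p = 0.809). Gpt2, at chr8:85492576-85528902, had 57.0, 107 and 71.5 RPKM in HFD and 67.7, 74.9 and 63.8 RPKM in LYC. All LYC libraries lay inside the HFD range, and the log2 fold change was 0.14 (SE 0.25, 95% interval -0.42 to 0.71; limma adjusted p = 0.735). The ratio of Gpt to Gpt2 within a library was 1.25, 0.858 and 1.33 in HFD and 0.880, 1.13 and 1.32 in LYC, so the ratio of these isozymes overlapped between the groups (exact permutation p = 0.9). Without TMM scaling the log2 fold changes of Slc37a4, Gpt and Gpt2 were -0.22, -0.18 and -0.14, so the direction of these small values depended on the scaling.

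Ppargc1a encodes PGC-1alpha, a transcriptional coactivator that works with nuclear receptors and FOXO1 on gluconeogenic genes. The gene spans chr5:51454249-52115853. It had 1.47, 1.82 and 2.03 RPKM in HFD and 3.12, 0.990 and 0.747 RPKM in LYC, and the LYC values held only 8, 2 and 2 reads. LYC1 was the highest library and the other LYC libraries the lowest, so the groups overlapped. The filter on low reads removed Ppargc1a, and an exact permutation test of its mean RPKM gave p = 1. At this depth a difference in Ppargc1a was not detectable.

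**Figure D2:**
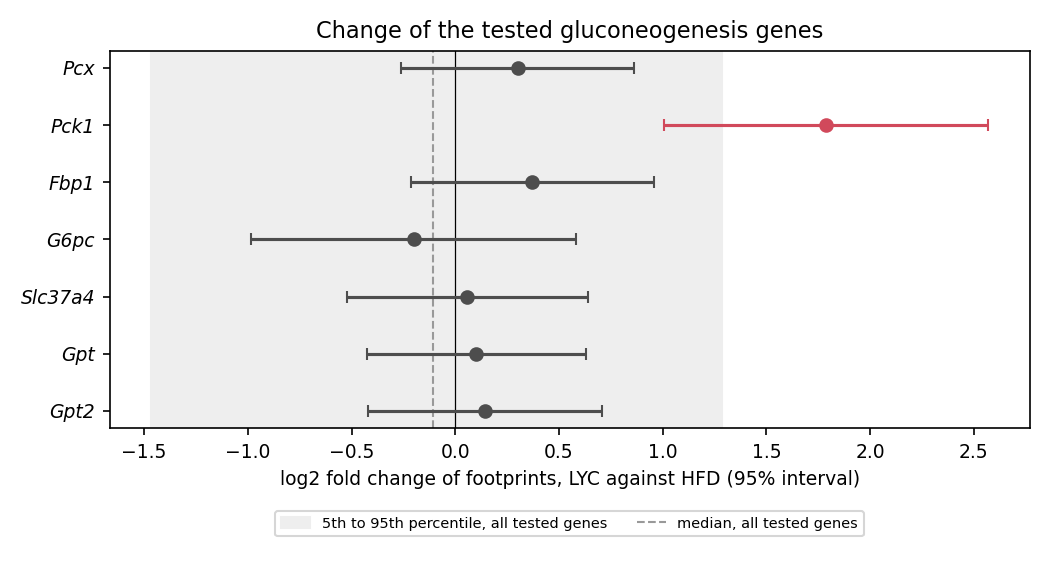
The log2 fold change of footprints, LYC against HFD, of the 7 tested gluconeogenesis genes, with 95% intervals from limma. The grey band runs from the 5th to the 95th percentile of all 5790 tested genes and the dashed line is their median; Pck1, at 1.79, lies to the right of the band, and the intervals of the other genes include 0.

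In HFD the mean RPKM ran, from high to low, Fbp1, Pck1, G6pc, Pcx, Gpt, Gpt2, Slc37a4 and Ppargc1a. Along that order the ranges of neighbours did not overlap for Fbp1 and Pck1, for Pcx and Gpt, and for Slc37a4 and Ppargc1a, and all other neighbours overlapped. In LYC the order was Pck1, Fbp1, Pcx, G6pc, Gpt, Gpt2, Slc37a4 and Ppargc1a, and the ranges were apart only for Fbp1 and Pcx and for Slc37a4 and Ppargc1a. On RPKM, Fbp1 was above Pck1 in 3 of 3 HFD libraries, and Pck1 was above Fbp1 in 3 of 3 LYC libraries. Pck1 took 19.6%, 27.1% and 28.3% of the summed RPKM of the 8 genes in HFD and 49.1%, 53.5% and 44.7% in LYC. The other 7 genes together reached 1044 ± 76.3 scaled RPKM in the HFD libraries and 1245 ± 245 in those of LYC (SD, n = 3 per group). Some of the spread within a group ran across genes: HFD2 was the highest HFD library for 6 of 8 genes and LYC2 the highest LYC library for 7 of 8. After TMM scaling these counts were 4 and 5 of 8. Gpt2, a longer transcript, held more reads than Gpt in each HFD library (774, 2344 and 297 against 347, 722 and 142), so its place below Gpt in the order of means holds per length only.

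Ratios between genes of the same library depend on neither the library total nor the scaling. The ratio of Pck1 to G6pc was 2.82, 1.97 and 2.68 in HFD against 11.4, 11.4 and 7.25 in LYC. The ratio of Pck1 to Fbp1 was 0.406, 0.729 and 0.760 in HFD against 1.53, 1.91 and 1.47 in LYC. The ratio of Pck1 to Pcx was 1.96, 3.34 and 3.39 in HFD against 8.90, 8.58 and 6.38 in LYC. In each of these the lowest LYC library lay above the highest HFD library, and the same held for the ratios to Slc37a4, Gpt and Gpt2. The ratio to Ppargc1a was apart only narrowly, at 307 in LYC1 against 292 in HFD2. It rested on 8, 2 and 2 Ppargc1a reads in LYC, too few to read a separation from it. Geometric means of the 7 ratios were 2.67-fold to 3.98-fold higher in LYC, each with an exact permutation p of 0.1, the smallest that 3 against 3 allow. These 7 ratios share their numerator and are therefore not independent. The 4 ratios computed without Pck1 overlapped between the groups. G6pc to Slc37a4 was 1.32, 3.64 and 2.80 in HFD and 1.77, 1.94 and 2.27 in LYC (exact permutation p = 0.6), G6pc to Fbp1 gave p = 0.3 by the same exact test, and Pcx to Fbp1 gave p = 0.9. With 3 libraries a group, none of the 11 ratios computed could reach a p below 0.1, and the Benjamini-Hochberg value over them was 0.157 for each Pck1 ratio.

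**Figure D3:**
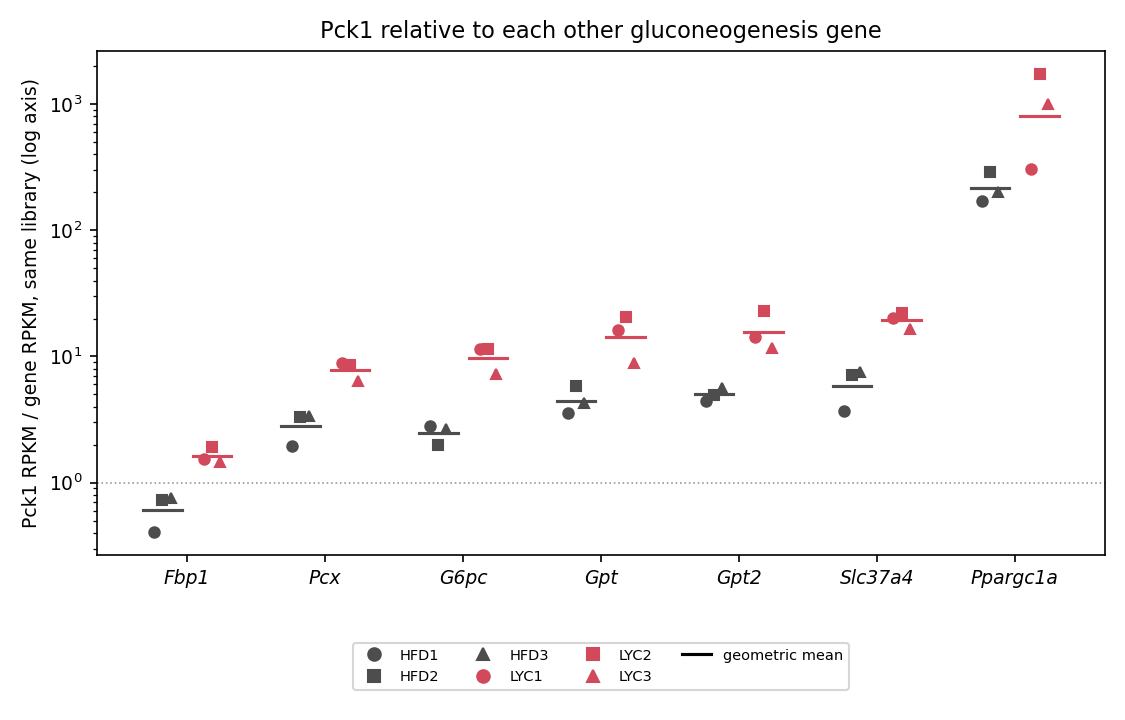
Pck1 RPKM divided by the RPKM of each other gluconeogenesis gene in the same library (log axis), with 1 point per library and a line at the geometric mean of each group. The ratios of the LYC libraries lie above those of all HFD libraries for all 7 genes, and the ratio to Fbp1 passes the dotted line at 1. For Ppargc1a the groups are apart only narrowly, on 8, 2 and 2 reads in LYC.

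Other genes of the route were grouped by role. Of 17 genes of the steps shared with glycolysis and of the isozymes around them, 13 were tested, 2 were called higher and 0 lower, with a median log2 fold change of 0.67. Of all tested genes 6.84% and 6.42% were called, and for this list edgeR and DESeq2 each called 3 higher and 0 lower. At an unadjusted p below 0.05, 8 of the 13 were higher and 0 lower, against 14.7% and 15.2% of all tested genes. Got1, the cytosolic aspartate aminotransferase, rose from 49.9, 86.8 and 62.3 RPKM in HFD to 148, 270 and 182 RPKM in LYC (log2 fold change 1.85, SE 0.25, limma adjusted p = 0.00406). Mdh1, the cytosolic malate dehydrogenase, rose from 282, 257 and 196 RPKM to 570, 786 and 568 RPKM (log2 fold change 1.67, SE 0.24, limma adjusted p = 0.00483). These enzymes return oxaloacetate that left the mitochondria as aspartate or malate to the cytosol, where Pck1 uses it. Their mitochondrial counterparts, chosen after their values were seen, were not called: Got2 had a log2 fold change of -0.11 (95% interval -0.75 to 0.53) and Mdh2 of 0.59 (95% interval 0.02 to 1.17). The ratio of Got1 to Got2 was 0.307, 0.455 and 0.364 in HFD against 1.09, 1.44 and 2.01 in LYC. The ratio of Mdh1 to Mdh2 was 3.04, 2.48 and 2.14 in HFD against 5.54, 4.55 and 6.00 in LYC, so neither ratio overlapped between the groups, which is a description since the pairs were picked after their values were seen. The ratio of Pck1 to Got1 overlapped, at 5.07, 6.11 and 6.50 in HFD and 6.47, 6.40 and 4.11 in LYC. Pck2, the mitochondrial carboxykinase, also named after its values were seen, was too low to test, and Fbp2, the muscle bisphosphatase, was at 0 in all libraries.

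Of 24 genes of substrate entry, 23 were in the table and 22 were tested, of which 3 were called higher and 1 lower, against 6.84% and 6.42% of all tested genes, with a median of 0.07. At an unadjusted p below 0.05 these counts were 4 and 2, against 14.7% and 15.2%. Tat, tyrosine aminotransferase, rose from 282, 548 and 441 RPKM in HFD to 883, 1490 and 716 RPKM in LYC (log2 fold change 1.55, limma adjusted p = 0.0192). Sds, serine dehydratase, which makes pyruvate from serine, rose from 37.8, 59.3 and 46.3 RPKM to 91.5, 243 and 93.8 RPKM (log2 fold change 1.71, limma adjusted p = 0.0183). Mpc2, a subunit of the mitochondrial pyruvate carrier, rose from 84.2, 91.8 and 72.9 RPKM to 154, 179 and 135 RPKM (log2 fold change 1.19, limma adjusted p = 0.0138), and its call was lost without scaling (0.90) and with the trend on gene length removed (0.80). Slc16a1, the monocarboxylate transporter MCT1, fell from 22.4, 27.5 and 22.7 RPKM to 4.58, 1.45 and 11.0 RPKM, with a limma adjusted p of 0.0551, and its call was lost without any 1 HFD library or LYC1. Its log2 fold change of -1.94 rested on 8, 2 and 20 reads in LYC and moved to -1.29 without LYC2 and to -2.51 without LYC3. Among the amino acid enzymes, the alanine aminotransferases were thus not called where Tat and Sds were, a contrast that was not itself tested.

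Of 15 genes known to rise in fasting liver, 11 were tested, 4 were called higher and 0 lower, with a median of 0.37, and the same counts held at an unadjusted p below 0.05. The called genes were Tat, Sds, Lpin1, which encodes a phosphatidate phosphatase that also acts as a coactivator (log2 fold change 3.20, limma adjusted p = 0.000756), and Angptl4, an inhibitor of lipoprotein lipase (1.72, limma adjusted p = 0.0110). The opposing glycolytic steps and the control of pyruvate dehydrogenase had 11 genes, of which 10 were tested, 1 was called higher and 0 lower, with a median of 0.19 (2 higher and 0 lower by edgeR and by DESeq2), and at an unadjusted p below 0.05 these counts were 3 and 0. Pfkfb3, which makes the phosphofructokinase activator fructose-2,6-bisphosphate, rose from 1.46, 1.81 and 1.43 RPKM to 6.06, 6.41 and 3.87 RPKM (log2 fold change 1.52, limma adjusted p = 0.0218). The Pfkfb3 values held only 12, 10 and 8 reads in LYC, and the log2 fold change was 0.77, no longer called, with a pseudocount of 5 and 2.06 with edgeR. The filter on low reads kept Pfkfb3 through its LYC libraries alone, where it was high, so its call leans on that filter. Of 31 genes of transcriptional and hormonal control, 25 were tested, 0 were called higher and 3 lower, with a median of -0.32, while edgeR and DESeq2 each called 0 higher and 5 lower. At an unadjusted p below 0.05 these counts were 3 and 7, against 14.7% and 15.2% of all tested genes. Gcgr, the glucagon receptor, fell from 63.1, 101 and 67.7 RPKM to 15.8, 33.3 and 37.7 RPKM (log2 fold change -1.17, limma adjusted p = 0.0444), on 12, 20 and 30 reads in LYC. Foxa2, a liver forkhead factor, had a log2 fold change of -1.54 (limma adjusted p = 0.0366) on 3, 4 and 2 reads in LYC, and of -1.04 with a pseudocount of 5. The filter kept Foxa2 through its HFD libraries alone, where it was high, so its call leans on the filter too. Stk11, the kinase LKB1, had a log2 fold change of -1.53 (limma adjusted p = 0.0609) on 4, 14 and 16 reads in LYC. With the trend on gene length removed it was -1.32 and no longer called. These 3 calls were less stable than that of Pck1: Gcgr lost its call without any 1 HFD library or LYC1 (-1.27 to -0.87), Foxa2 without HFD1 (-1.32) or HFD3 (-1.60), and Stk11 without any 1 library but LYC2 (-1.77 to -1.05). Over all tested genes the shares called were 6.84% higher and 6.42% lower.

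**Figure D4:**
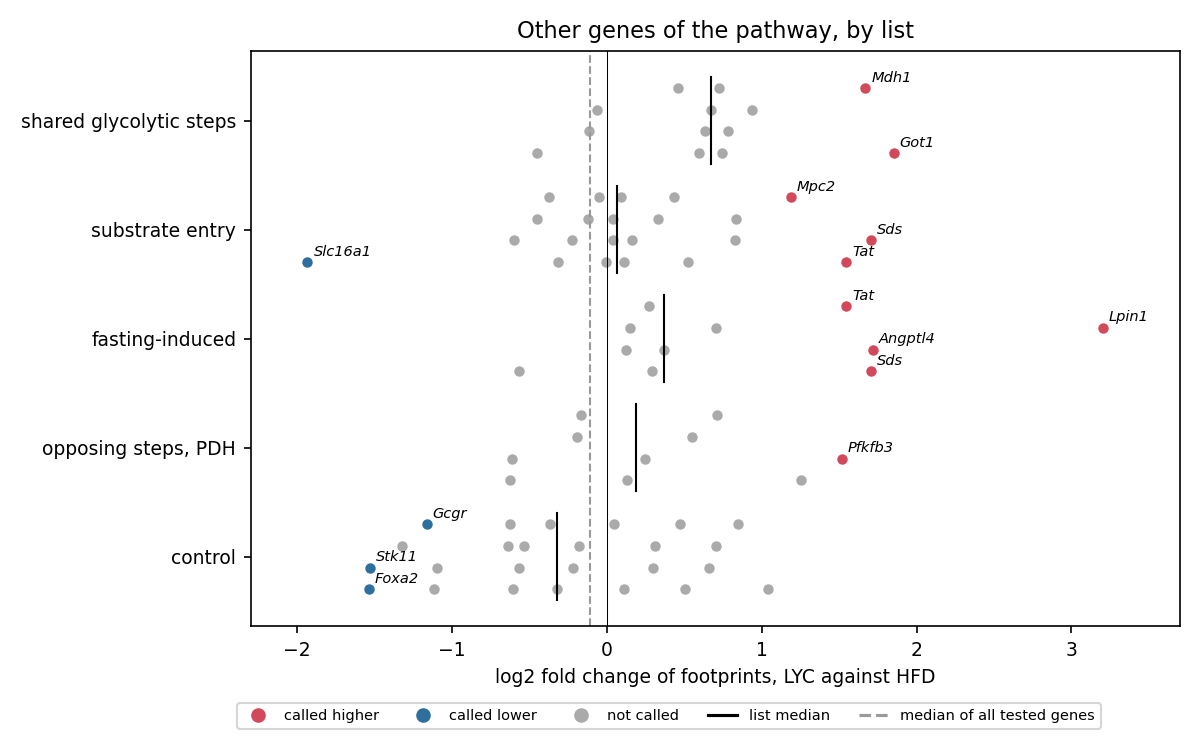
The log2 fold change of footprints, LYC against HFD, of each tested gene of 5 lists of related genes, with called genes in colour and named, list medians as black lines and the median of all tested genes dashed. Got1 and Mdh1 stand apart in the shared steps, and the 3 called genes of the control list lie to the left.

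The genes whose pattern over the 6 libraries was most like that of Pck1, by Euclidean distance of centred log2 values among 5789 genes, were Tat, Mir22 and Tsc22d3. Tat lay at a distance of 0.32, and the ratio of Pck1 to Tat was 0.897, 0.968 and 0.919 in HFD and 1.08, 1.16 and 1.04 in LYC. Mir22, a microRNA gene, lay at 0.47 and rose from 50.2, 81.2 and 75.7 RPKM to 187, 305 and 179 RPKM, but its log2 fold change of 1.95 became 0.42 once the trend with gene length was removed. The filter on low reads kept Mir22 through its LYC libraries alone and removed it without HFD1, HFD2 or HFD3. Its place near Pck1 therefore leans on that filter and is not support for the Pck1 difference. Tsc22d3, which encodes the leucine zipper protein GILZ, lay at 0.50 and rose from 13.4, 28.3 and 20.5 RPKM to 58.1, 72.5 and 49.0 RPKM (log2 fold change 1.81, limma adjusted p = 0.00791). The distance rewards genes with a similar difference between the groups, so a call in the same direction is part of the likeness. The other members were far down this order, at rank 1068 for Fbp1, 1205 for Pcx, 1579 for Gpt2, 1847 for Slc37a4, 1879 for Gpt and 2416 for G6pc.

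Pck1 and Sds also mark periportal hepatocytes, the cells around the portal vein. Over all tested genes 6.84% were called higher and 6.42% lower. Of the 7 periportal markers tested, these 2 were called higher and 0 were called lower (also 0 by edgeR and DESeq2), the median log2 fold change was -0.00, and the summed level was 2478 to 3261 RPKM in HFD and 2697 to 5118 RPKM in LYC. Pck1 is part of that count and of that sum. Cyp2f2, a periportal cytochrome P450 named after its values were seen, lay the other way, at 571, 540 and 614 RPKM in HFD and 191, 291 and 299 RPKM in LYC without overlap (log2 fold change -0.88, limma adjusted p = 0.0501), short of the fold limit of a call. After TMM scaling, where its groups were also apart, 19.3% of all tested genes were lower without overlap. Of 8 pericentral markers, 5 were tested, 0 were called higher (1 at an unadjusted p below 0.05) and 1 lower (Cyp1a2, log2 fold change -1.31, limma adjusted p = 0.0663; call lost without HFD1, HFD3, LYC2 or LYC3, at -1.36 to -0.94). Of 6 genes listed as hepatocyte markers without regard to zone, 1 was called, Cps1, at 1.07 (limma adjusted p = 0.0571, call lost without any 1 library but LYC3, at 0.89 to 1.10). These genes may themselves be zoned, and the periportal count above does not cover Cps1. By limma, 0 of the 5 tested Kupffer cell, 4 endothelial and 3 stellate cell markers were called, 1 of these 12 passed an unadjusted p of 0.05, and edgeR and DESeq2 each called 1 Kupffer cell marker higher (Vsig4, named after its values were seen). The adipocyte markers Plin1 and Lep were at 0 in all libraries, and the summed adipocyte list reached 4.92 to 12.9 RPKM in HFD and 10.4 to 26.4 RPKM in LYC. Among the other adipocyte markers Cidec alone had a higher mean in LYC, at no more than 1.73 RPKM in any HFD library against 2.97, 16.9 and 22.7 RPKM, on 2, 9 and 16 reads in LYC, while Fabp4 averaged 8.32 and 6.82 RPKM and Adipoq was at 0 in LYC. Of the cholangiocyte, adipocyte, kidney and lymphocyte markers 0 were abundant enough to test, and the summed cholangiocyte list was at 15.4 to 25.0 RPKM in HFD and 2.89 to 9.25 RPKM in LYC. The part of these cell types in the Pck1 difference was not tested.

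A second table, labelled RNA-seq, holds read counts of 3 HFD and 3 LYC libraries. Its libraries each resembled 1 Ribo-seq library most, with a correlation across 24586 genes of 0.928 to 0.958, and genes are not independent replicates. In LYC these were the libraries of the same number, while the HFD libraries numbered 1, 2 and 3 resembled Ribo-seq HFD2, HFD3 and HFD1. In LYC the counts of the 8 members there differed from the reads recovered from the Ribo-seq values by at most 2 reads, and 16 of 24 values were equal. In HFD, after matching each library to the one it resembled most, 23 values over 20 reads differed by 0.773% to 7.69%. The tables thus hold nearly the same reads of these genes, which does not show which of the labels is right, so values are called footprints here by the label of the Ribo-seq table only. The second table was not read as mRNA levels, and translational efficiency was not computed. A single gene, Lars2, which encodes the mitochondrial leucyl-tRNA synthetase, took 6.68% to 15.0% of the reads of this table in HFD and 35.9% to 40.3% in LYC, without overlap, and the part of this in its fold changes was not tested. With edgeR's quasi-likelihood test on these counts, 1 of 7 tested members was called, against 9.31% of 5921 genes called higher and 7.33% called lower. That member was again Pck1, with a log2 fold change of 1.84 (SE 0.36, edgeR adjusted p = 0.00187), and the other members lay between -0.26 and 0.42.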

How the data were processed

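Liver Ribo-seq and RNA-labelled libraries of the HFD and LYC groups were used, 3 of each. Per the labels and the study's methods, the authors cleaned the raw reads using cutadapt and Bowtie2, mapped to mm10 by STAR, and quantified genes by FANSE2; tool versions, annotation release and filters are not given in the sources used here. For Ribo-seq the authors deposited RPKM values. For the RNA-labelled libraries the authors deposited read counts and RPKM values per gene.

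Reads behind each Ribo-seq RPKM were recovered as multiples of 1 read at a gene's length, with whole numbers (within 0.02) in 71.9% to 72.4% of values at the length implied by the second table; a length was fitted for the other 4545 genes and 1 gene was rounded. Of 25033 rows, 4 sharing a name were left out and 26 had names turned into dates. RPKM was divided by edgeR's TMM factor on recovered reads, 1 was added, and limma with a mean-variance trend was fitted to the genes kept by filterByExpr. The call limits, absolute log2 fold change above 1 and unadjusted p below 0.01, follow the study's results (its methods give a p of 0.001, tried as an alternative). edgeR on the recovered reads, as an alternative, called 489 genes higher and 401 lower. Over all genes the median log2 fold change was -0.11, and -0.36 without scaling. RNA-labelled counts were tested with edgeR's quasi-likelihood test. Exact permutation tests were two-sided. Tests were run on simulated data first.

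The members, lists and motifs were chosen with earlier results of these data known. Genes named by rule are the members, up to 3 called genes per list and direction with the smallest p, and the 3 genes nearest to Pck1. Some others are said to be chosen after their values were seen. Also named outside this rule were list genes without reads in any library, Cidec, Fabp4, Adipoq, genes overlapping members, and Lars2. Not every gene covered by this rule is reported here. Alternatives were scaling, pseudocounts, filter, edgeR, DESeq2, a length trend, thresholds, a replicate block and leaving out each library. Gene positions and promoters were taken from RefSeq, GRCm38.p6. The authors' own comparisons were not used. The fits ran in R 4.3.3 with limma 3.58.1, with edgeR 4.0.16 and with DESeq2 1.42.0. Tables and figures were made in Python 3.11.15, using pandas 2.3.3 and numpy 2.4.6, with scipy 1.17.1 for exact tests and matplotlib 3.10.9 for plots.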

Additional observations from a re-analysis of the deposited data

How the results depend on the processing

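In all 17 alternatives for Ribo-seq and all 9 for the RNA-labelled table, 1 member was called higher and 0 lower. Pck1 kept its call throughout, at Ribo-seq log2 fold changes of 1.50 (no scaling) to 2.05 (without LYC3) with adjusted p of 7.65e-06 to 0.0584, and at 1.54 to 2.08 with adjusted p of 5.17e-06 to 0.0138 in the RNA-labelled table. With the replicate number as a block its value was 1.79 and 393 genes were called higher and 354 lower, with 486 and 373 in the RNA-labelled table; same-numbered libraries did not deviate together (correlations 0.139, -0.0025 and -0.019 for Ribo-seq, -0.056, 0.079 and -0.0042 for the RNA-labelled table, whose HFD numbers are shifted against those of Ribo-seq, so its block joins other libraries), the labels tie no HFD library to a LYC library, and the block changed no member's call. Fbp1 and Pcx kept their sign and were not called in any alternative, but the size of their values moved. Without scaling Fbp1 was 0.085 and Pcx 0.017, and leaving out each library gave 0.22 to 0.56 for Fbp1 and 0.096 to 0.41 for Pcx. Small values changed sign in some: without scaling Slc37a4 was -0.22, Gpt -0.18 and Gpt2 -0.14; without the filter they were -0.087, -0.044 and -0.0029, and -0.10, -0.053 and -0.034 in the RNA-labelled table. Leaving out each library gave -0.12 to 0.20 for Slc37a4, -0.00064 to 0.20 for Gpt, -0.033 to 0.27 for Gpt2 and -0.56 to 0.078 for G6pc, and in the RNA-labelled table -0.11 to 0.24, 0.029 to 0.23, -0.0089 to 0.31 and -0.54 to 0.096.

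Over all genes, the counts called higher and lower (396 and 372) were 235 and 652 without scaling and 193 and 105 at p below 0.001. The count lower was 227 with a pseudocount of 5 and 877 without the filter (988 in the RNA-labelled table, against 434). Leaving out each library gave 268 to 575 higher and 144 to 707 lower, with 169, 175 and 144 lower without HFD1, HFD2 and HFD3 and 707 without LYC3; the cause was not tested. Ppargc1a was too low for most fits and had -0.09 without the filter, 0.20 without LYC2 and 0.26 without LYC3. Among the related genes, Got1, Mdh1, Sds, Tat, Angptl4, Lpin1 and Tsc22d3 kept their calls in all 17 alternatives. Calls were lost in 9 for Cps1 and Stk11, 7 for Slc16a1 and Cyp1a2, 5 for Gcgr, 3 for Foxa2, 2 for Mpc2 and Pfkfb3, and 1 of 14 for Mir22, which the filter removed without HFD1, HFD2 or HFD3. Depth limits the LYC values: the tested members held 39 to 1420 reads in LYC libraries and Ppargc1a 2 to 8.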
